A study of Mus musculus with 6 samples.

Results

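Expression of 10 genes whose products the yolk sac endoderm exports was followed on whole-embryo arrays: Afp, Ttr and Rbp4, which encode carrier proteins, and Apoa1, Apoa2, Apoa4, Apom, Apob, Apoc2 and Apoe, which encode apolipoproteins. They were taken by gene name from the non-control spots, and all 10 were found among 27670 gene names on the array. They were read by 14 of 41174 probes, of which Apob had 5 and each other gene 1. Afp, Apoa1 and Apoe were each spotted 10 times on an array. Each of the 14 probes passed the scanner's background flag on every array, and no spot of them was saturated.

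Until the liver is at work, the visceral endoderm around the embryo and, later, the endoderm of the yolk sac supply the conceptus with plasma proteins. These cells take up maternal nutrients at their outer surface and release lipoproteins and carrier proteins toward the embryo. Many of the same genes are switched on again in the fetal liver and gut, by regulators such as HNF4, HNF1 and FOXA proteins. Loss of the lipoprotein scaffold protein or of its lipid-loading partner is known to be lethal to the mouse embryo.

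The samples were RNA of whole mouse embryos of embryonic day 8.5 (E8.5), 1 array each. The CKO group had 3 samples of the genotype Brg1d/d, a conditional knockout of Brg1, and the control group had 3 samples of the genotype Brg1fl/fl, in which the floxed gene is intact and which the labels treat as wild type. In both groups the mother had received tamoxifen by intraperitoneal injection. Brg1, whose gene symbol is Smarca4, encodes an ATPase of the SWI/SNF chromatin remodelling complexes. The Cre driver, the tissues in which it acts, the deleted exons, the number of embryos per sample and whether the yolk sac was left on them were not given in the sources used here. The replicates are called biological in the design text.

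Levels are given as the log2 of the background-corrected signal minus the log2 of the array's 75th percentile, so that a difference of 1 is a doubling. A level is compared only with the same probe on other arrays. Smarca4 itself had levels of 1.49, 2.65 and 2.0 on CKO 1, 2 and 3, against 5.28, 4.45 and 4.50 on controls 1, 2 and 3. It fell by 2.69 in CKO samples (limma adjusted p = 0.011, n = 3 and 3). CKO 2 and the 3 controls were scanned on 1 day, and CKO 1 and CKO 3 on a day of their own each. CKO 1 and CKO 3 also had a dim spike-in signal (12934 and 6905 units, against 208550 to 241121 on the other arrays). This is called the spike-in split below; no label names such a batch, and whether it comes from labelling or from the amount of spike-in is not known. The difference between CKO 2 and controls 2 and 3 is therefore given as the same-day value, for Afp, Apoa2, Apoa4, Apob and Apoe beside their results. For the other members it was -0.37 (Rbp4), -0.52 (Ttr), -0.23 (Apoa1), 0.27 (Apom) and -0.72 (Apoc2). All controls were on a common slide and no CKO array shared one, so slide and genotype cannot be told apart.

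Control 1 stood apart in these genes and was known to do so when the set was chosen. All 10 genes had their lowest level of the 6 arrays on control 1. Its differences from the mean of controls 2 and 3 ran from -2.05 (Afp and Rbp4) to -4.45 (Apoa4), with a median of -2.80, while the median over all genes measured was 0.069. Of all genes, 43.2% lay below controls 2 and 3 on control 1 and 3.14% lay at least 4-fold below, as all 10 members did. These values are a description with no test, since 1 array has no replicate of its own.

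Markers of the visceral endoderm and of primitive red cells were low on control 1 in the same way. All 15 measured visceral endoderm markers, such as the uptake receptor genes Amn and Cubn, lay below controls 2 and 3, with a median of -2.86. All 11 markers of primitive red cells, which arise in the yolk sac, did so with a median of -2.99. None of 8 neural and somite markers and none of 7 heart markers lay below, with medians of 1.24 and 0.44, and 1 of 8 gut endoderm markers did. Of 7 parietal endoderm markers 5 lay below, but with a median of -0.19. All 7 measured macrophage markers lay below, with a median of -1.24. The signal of the visceral endoderm markers, summed in multiples of the array's 75th percentile, was 428, 436 and 402 on CKO 1, 2 and 3, against 81.1, 377 and 439 on controls 1, 2 and 3. In bulk RNA, fewer cells of a type and less RNA per cell cannot be told apart, and whether control 1 held less yolk sac tissue was not tested.

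**Figure D1:**
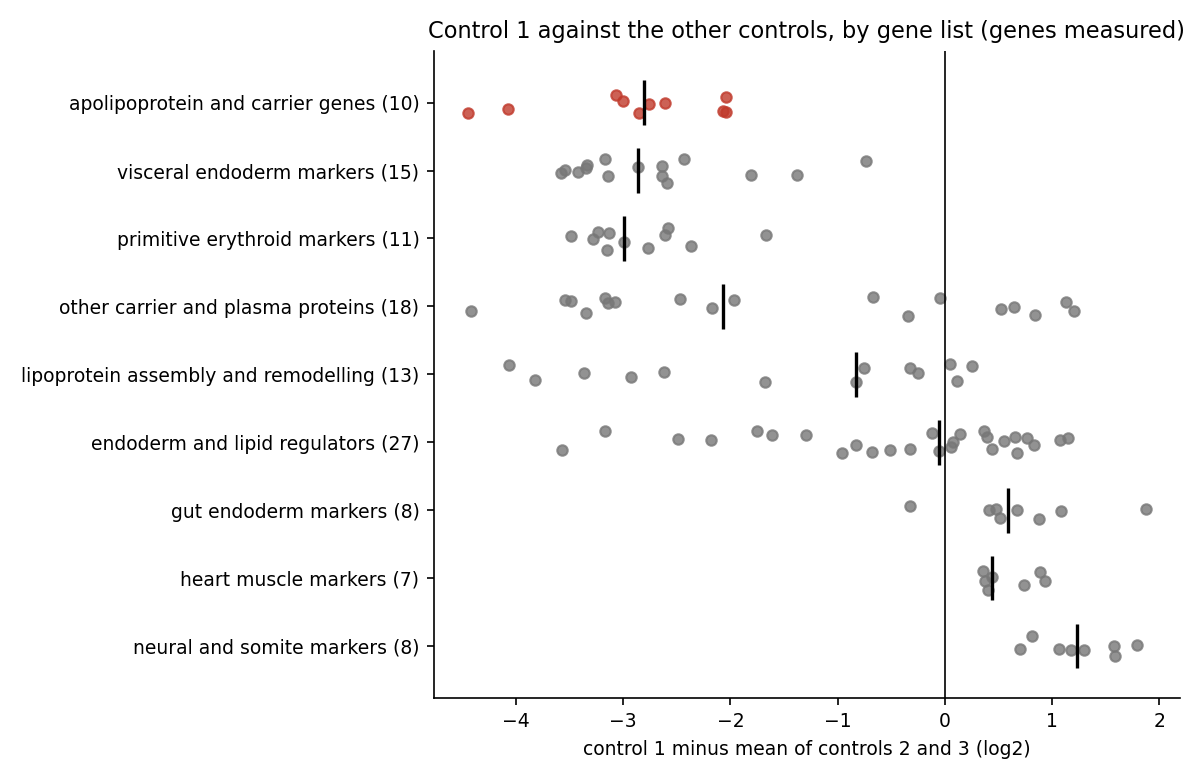
Difference of control 1 from the mean of controls 2 and 3 (x axis, log2) for each measured gene of 9 lists; a point is a gene and the vertical bar is the list's median. The 10 apolipoprotein and carrier genes lie between -4.45 and -2.05. Visceral endoderm markers lie between -3.58 and -0.74 and primitive erythroid markers between -3.48 and -1.66. Apoa4 (-4.45) and Apoa2 (-4.07) thus lie below all of these markers. The heart, neural and somite markers lie above 0.

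Because of this array, the 10 genes are given as a set, first with all 6 arrays and then without control 1. Differences of single genes further below are from the fit without control 1 unless another fit is named. With all 6 arrays the spread among the controls was 1.18 to 2.60 (SD, n = 3), against 0.075 to 0.29 among the CKO samples. In that fit 0 of 10 genes passed the limma threshold of an adjusted p under 0.05, against 10.6% of 15018 genes in the background (5.25% higher and 5.31% lower), and 1 of the 10, Apoe, had an unadjusted p under 0.05. Differences of CKO minus control ranged from -0.79 (Apoa2) to 1.37 (Apoe), with standard errors of 0.55 to 1.19. Apom lay at 1.35, Afp at -0.18 and Apoa4 at -0.67. Apoa1 (0.97), Apob (0.82), Ttr (0.52), Rbp4 (0.46) and Apoc2 (0.33) were above 0 here and below 0 without control 1. Only Apoe and Apom had no overlap between the genotypes, and both were higher in every CKO sample; 22.8% of all genes were higher and 19.1% lower without overlap.

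Without control 1, 3 of the 10 genes fell in CKO samples and none rose, against a background of 14.8% of 15019 genes called (7.33% lower and 7.47% higher). The genes that fell were Apoa2, Apoa4 and Afp. Without overlap with controls 2 and 3, 5 genes were lower (these 3, Apoc2 and Rbp4) and 2 higher (Apoe and Apom), beside 26.3% and 31.6% of all genes. Control 1 was left out because of its levels in these genes, which lowers the spread among the controls by choice, so the p-values of this fit can be too small. The same 2 controls stand behind all 10 values.

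**Figure D2:**
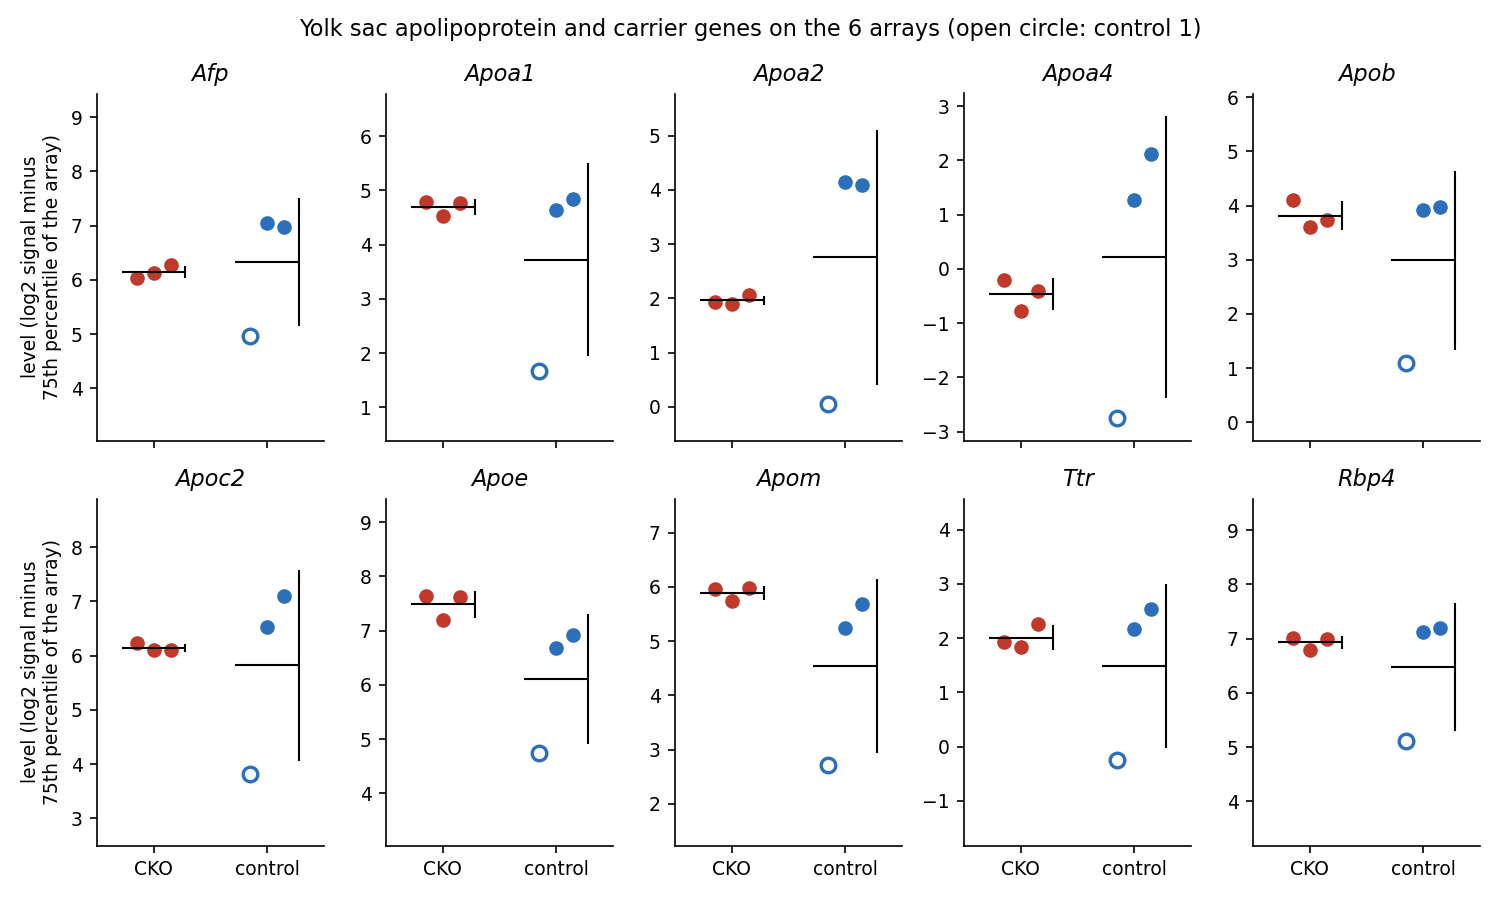
Level (y axis, log2 signal minus the 75th percentile of the array) of each gene, read through its brightest probe, in the 3 CKO samples (left, red) and the 3 controls (right, blue, control 1 as an open circle); horizontal lines are means and vertical lines SDs (n = 3). Each y axis spans the same number of log2 units. Control 1 is the lowest array in every panel, and the CKO points of Apoa2, Apoa4 and Afp lie between control 1 and the other controls.

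Of the 3 carrier protein genes, Afp alone fell. Afp, the albumin-like protein that carries fatty acids and other ligands in fetal plasma, had levels of 6.04, 6.12 and 6.27 on CKO 1, 2 and 3, against 4.96, 7.04 and 6.98 on controls 1, 2 and 3. All CKO values lay below controls 2 and 3 and above control 1. Without control 1, Afp fell by 0.86 ± 0.15 (SE), a 1.82-fold lower level (limma adjusted p = 0.024), and the same-day value was -0.89. The call was lost with control 2 (adjusted p = 0.158), control 3 (0.128), CKO 1 (0.069) or CKO 3 (0.068) left out, with no filter on dim probes (0.064), and when the fit held the scan day (0.093) or the spike-in split (0.083) as a block.

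Rbp4 carries retinol, the precursor of retinoic acid, to tissues, and had levels of 7.01, 6.79 and 7.0 in CKO samples, against 5.11, 7.12 and 7.19 in controls. Without control 1 its difference was -0.22, with a 95% interval of -0.61 to 0.16 (limma adjusted p = 0.34). Ttr, the thyroxine carrier that also holds Rbp4 in the circulation, had levels of 1.92, 1.84 and 2.27 in CKO samples, against -0.25, 2.17 and 2.53 in controls. Its difference without control 1 was -0.34, with an interval of -0.86 to 0.17 (limma adjusted p = 0.28). Neither gene passed, and in this fit the intervals held changes in either direction of less than 2-fold. They can be too narrow, since control 1 was left out for its levels in these genes. With all 6 arrays they were -0.87 to 1.79 for Rbp4 and -1.17 to 2.21 for Ttr. Both of those hold changes above 2-fold.

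Apoa1, Apoa2 and Apoa4 are proteins of high-density lipoprotein, of which Apoa1 is the main scaffold and Apoa2 a partner; Apoa4 is best known from the gut, where it leaves on newly made lipoproteins. Their probes are shown because the results of the next paragraphs rest on single 60-base probes of Apoa2 and Apoa4. Coordinates are those of the array annotation (mm7): Apoa2 chr1:171195820-171195879 on the plus strand, and Apoa4 chr9:46199701-46200444 on the plus strand, an interval longer than the probe.

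Apoa2: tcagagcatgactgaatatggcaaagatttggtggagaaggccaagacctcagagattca

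Apoa4: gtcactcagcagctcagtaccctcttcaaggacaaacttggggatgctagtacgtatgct

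Apoa2 had levels of 1.94, 1.90 and 2.06 in CKO samples, with a mean of 1.97 ± 0.084 (SD, n = 3), against 0.043, 4.14 and 4.09 in controls 1, 2 and 3. The CKO samples were close together, about midway between control 1 and the other controls. Without control 1 Apoa2 fell by 2.15 ± 0.15 (SE), a 4.44-fold lower level (limma adjusted p = 0.0025), and the same-day value was -2.22. The call was made with each further array left out in turn, at differences between -2.20 and -2.12.

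Apoa4 had levels of -0.20, -0.77 and -0.41 in CKO samples, against -2.75, 1.27 and 2.13 in controls. Without control 1 it fell by 2.16 ± 0.31 (SE), a 4.46-fold lower level (limma adjusted p = 0.015), and the same-day value was -2.47. The call was lost without control 3, at -1.73 (adjusted p = 0.075), and when the fit held the scan day as a block (adjusted p = 0.061). With both controls in the fit, all CKO samples lay below both of them.

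Apoa1 did not follow Apoa2 and Apoa4. Its levels were 4.79, 4.52 and 4.77 in CKO samples, against 1.68, 4.65 and 4.84 in controls. Without control 1 the difference was -0.052 (limma adjusted p = 0.84). Its interval of -0.47 to 0.37 held no fall of the size seen for its HDL partners in the same fit. With all 6 arrays the difference was 0.97, with an interval of -0.98 to 2.93. Apom, which carries sphingosine-1-phosphate on the same particles, had levels of 5.96, 5.73 and 5.97 in CKO samples, against 2.71, 5.24 and 5.68 in controls. It was above all controls in every CKO sample, but its difference of 0.43 without control 1, with an interval of -0.06 to 0.91, did not pass (limma adjusted p = 0.18).

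Apob, the large scaffold protein of the lipoproteins that carry triglyceride and cholesterol, was read by 5 probes along its plus-strand gene on chromosome 12. They are shown in the order of transcription because they gave different answers.

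Apob probe 1: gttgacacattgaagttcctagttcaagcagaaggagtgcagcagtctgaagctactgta

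Apob probe 2: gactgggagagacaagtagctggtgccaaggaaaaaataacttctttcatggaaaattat

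Apob probe 3: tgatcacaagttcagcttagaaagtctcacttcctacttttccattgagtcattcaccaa

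Apob probe 4: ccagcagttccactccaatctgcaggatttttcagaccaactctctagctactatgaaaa

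Apob probe 5: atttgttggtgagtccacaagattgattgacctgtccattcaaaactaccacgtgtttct

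In the mm7 annotation they lie at chr12:7954595-7956804 (probe 1, an interval longer than the probe), chr12:7963823-7963882, chr12:7967854-7967913, chr12:7972247-7972306 and chr12:7972307-7972366 (probe 5). Probes 4 and 5 adjoin each other, and probes 1, 2 and 3 end 15562, 8484 and 4453 bases before the end of probe 5 in the genome.

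Probe 5, the brightest of them, had levels of 4.11, 3.60 and 3.73 in CKO samples, against 1.09, 3.92 and 3.97 in controls. Without control 1 its difference was -0.13 ± 0.20 (SE; limma adjusted p = 0.66), and that of probe 4 was -0.0076 (adjusted p = 0.98). Of the upstream probes, the first 2 passed and were lower in CKO samples, and the third just missed: the differences were -1.09 for probe 1 (limma adjusted p = 0.027), -1.24 for probe 2 (adjusted p = 0.017) and -0.89 for probe 3 (adjusted p = 0.052). The same-day values were -0.92, -1.06 and -0.86 for probes 1, 2 and 3, and -0.28 and -0.34 for probes 4 and 5.

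The mean of the last 2 probes minus that of the first 3 was 5.36, 4.51 and 4.77 on CKO 1, 2 and 3, against 4.01, 4.09 and 3.66 on controls 1, 2 and 3. The genotypes did not overlap, control 1 included, and differed by 0.96. CKO 2, the CKO array scanned with the controls, was the nearest to them. As a background, 3995 genes had a first and a last probe 2000 to 200000 bases apart, and the median difference of their last-minus-first contrast was -0.13. Of them, 4.01% had a difference at least as large as that of Apob, in the same direction. The background took only the first and the last probe of a gene and the Apob value took means of probes, so the measures are unlike. The Apob contrast was chosen after the values were seen. Whether RNA length, labelling or transcript form moved with it was not tested.

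**Figure D3:**
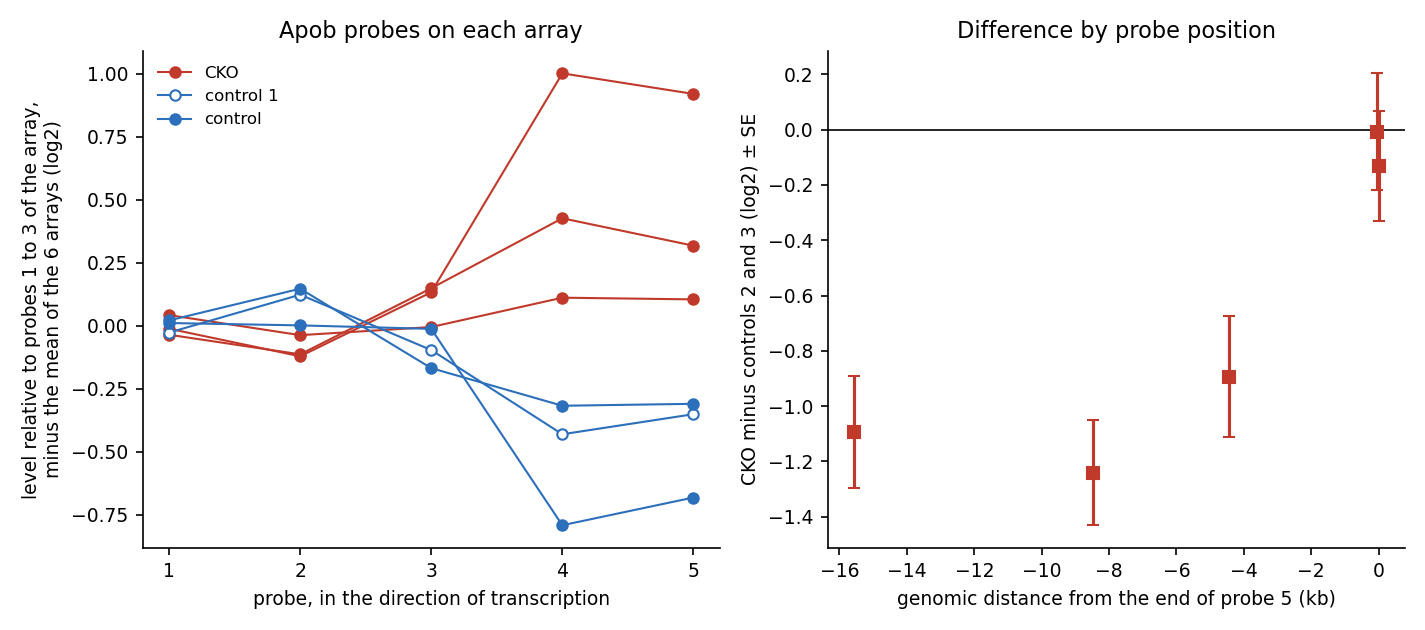
Left, level of each Apob probe relative to the mean of probes 1 to 3 on the same array, minus the mean of the 6 arrays (y axis, log2), for the 3 CKO samples (red) and the controls (blue, control 1 open); right, CKO minus controls 2 and 3 (y axis, log2, bars are SE) by genomic distance from the end of probe 5 (x axis, kb). At probes 4 and 5 the CKO lines lie above all control lines, and on the right probes 1, 2 and 3 lie near -1 while probes 4 and 5 lie near 0.

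Apoc2, the cofactor that lipoprotein lipase needs to release fatty acids, had levels of 6.23, 6.10 and 6.11 in CKO samples, against 3.81, 6.53 and 7.10 in controls. All CKO values lay below controls 2 and 3 and above control 1. Without control 1 the difference of -0.67 ± 0.21 (SE) did not pass (limma adjusted p = 0.089). Its interval of -1.19 to -0.15 did not include 0 in that fit. With all 6 arrays the difference was 0.33, with an interval of -1.60 to 2.26 (limma adjusted p = 0.80).

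Apoe, the ligand through which receptors of the LDL receptor family clear lipoproteins, lay on the other side of 0. Its probe, on the minus strand of chr7:17378757-17378816, was spotted 10 times. It is shown with that of Apom (minus strand of chr17:33227251-33227310), as the pair with the largest positive differences of CKO minus control.

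Apoe: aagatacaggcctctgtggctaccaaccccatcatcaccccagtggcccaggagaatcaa

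Apom: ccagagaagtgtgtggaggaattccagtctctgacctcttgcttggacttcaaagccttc

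Apoe had levels of 7.63, 7.20 and 7.63 in CKO samples, against 4.74, 6.68 and 6.93 in controls. Every CKO sample lay above every control. Without control 1 the difference was 0.68 ± 0.20 (SE), with an interval of 0.18 to 1.19, which did not pass (limma adjusted p = 0.080); the same-day value was 0.39. Macrophages, among other cells, also express Apoe. Of 11 macrophage markers 7 were measured, with a median difference of 0.22 without control 1 and 0.50 with all 6 arrays. Their summed signal was 0.682, 0.468 and 0.527 on CKO 1, 2 and 3, against 0.336, 0.942 and 1.15 on controls 1, 2 and 3, in multiples of the array's 75th percentile. Median and sum thus went opposite ways without control 1, and the part of these cells in the Apoe values was not tested.

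**Figure D4:**
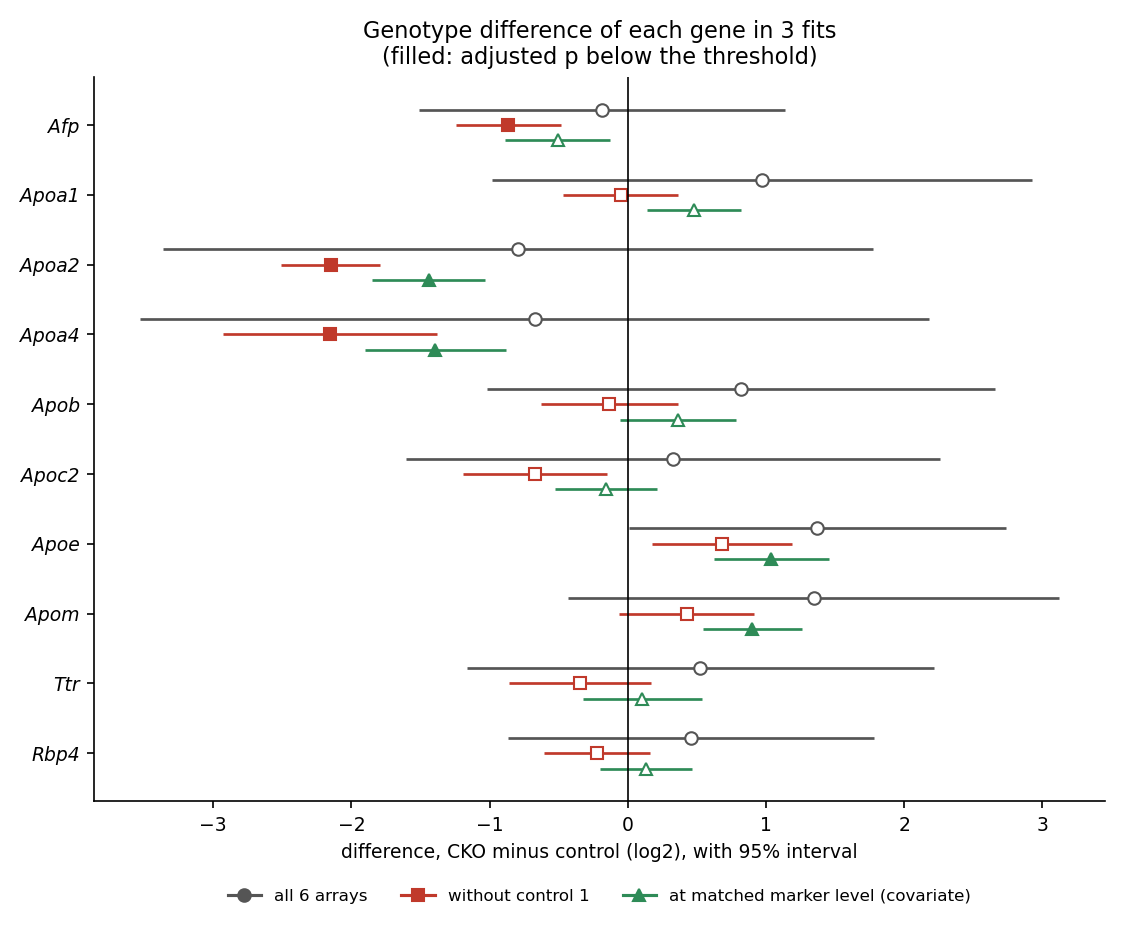
Difference of CKO minus control (x axis, log2, bars are 95% intervals) of each gene with all 6 arrays (circles), without control 1 (squares) and with the visceral endoderm marker level as a covariate (triangles); filled symbols have a limma adjusted p under 0.05. In each of the 3 fits Apoa2 and Apoa4 lie furthest to the left and Apoe and Apom furthest to the right.

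A further fit kept all 6 arrays and set the genotypes at a matched level of the other yolk sac genes, through the mean of 15 visceral endoderm markers, none of them a member. That mean was 3.23, 3.14 and 3.17 on CKO 1, 2 and 3, against 0.94, 3.54 and 3.76 on controls 1, 2 and 3. No control lay within the CKO range, so the match was made through the fitted slope alone. Over the 6 arrays the marker mean followed the members' own mean closely (Pearson correlation 0.998). The covariate thus largely took out the level that the members share. Apoe and Apom rose in CKO samples in this fit, by 1.04 ± 0.17 and 0.90 ± 0.14 (SE; limma adjusted p = 0.016 for each). Apoa2 and Apoa4 fell, by 1.44 ± 0.17 and 1.39 ± 0.21 (limma adjusted p = 0.0068 and 0.013). Afp, at -0.51, and Apoa1, at 0.48, did not pass (limma adjusted p = 0.072 and 0.063).

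In the background of this fit, 19.4% of genes passed, 10.1% higher and 9.32% lower. The slope of the covariate was set mainly by control 1, the array with the low marker level. Among the markers, 5 of 15 were themselves lower in CKO samples without control 1 (Fga, Fgg, Trf, S100g and Slc2a2), and none was higher, so the level at which the genotypes were matched also moved with genotype.

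Each gene was also set against the mean of the other 9 on its own array, which takes out any shift the genes share. The order of these relative differences is fixed by that of the fit with all 6 arrays, so they add the values by array and no separate evidence. Relative to the others, Apoe was 1.06, Apom 1.03, Apoa1 0.62 and Apob 0.45 higher in CKO samples. None of these overlapped between the genotypes, control 1 included. Apob stands here for its probe 5 alone. With all 6 arrays, probes 4 and 5 differed by 0.95 and 0.82 on the plain scale, but probes 1, 2 and 3 by -0.080, -0.26 and 0.11. Relative levels of the other Apob probes were not worked out. For Apom this relative level was 1.57, 1.59 and 1.59 in CKO samples, against 0.66, 0.40 and 0.60 in controls. Apoa2 differed by -1.34, at -2.90, -2.67 and -2.75 in CKO samples against -2.30, -0.81 and -1.17 in controls, and Afp by -0.67, both without overlap. Apoa4 differed by -1.21 with overlap, because control 1 was at -5.40, within the CKO range of -5.64 to -5.27. Relative levels of the 10 genes add up to 0, so a fall of some raises the others, and they are given as a description with no test. No share over all genes was worked out on this scale. On the plain scale with all 6 arrays, 22.8% of all genes were higher and 19.1% lower without overlap.

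Several members sit in gene clusters, and their measured neighbours in the reference table, up to 4 on each side, were read in the same fits. Of 66 neighbours outside the set, 7 rose and 6 fell without control 1, beside 7.47% and 7.33% of all genes. With all 6 arrays, 4 rose and 3 fell, beside 5.25% and 5.31% of all genes. In the Apoa1 to Apoa4 cluster on chromosome 9, the order along the chromosome is Apoa1, Apoc3, Apoa4 and Apoa5. Apoa1 differed by -0.052, Apoc3, an inhibitor of triglyceride clearance, by -1.12 (limma adjusted p = 0.063), Apoa4 by -2.16 and Apoa5, a promoter of that clearance, by -0.97 (adjusted p = 0.043). All 4 were low on control 1, at differences of -2.44 to -4.45 from the other controls. The flanking genes Sik3 and Zpr1 differed by 0.68 and 0.56 and did not pass.

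In the Apoe to Apoc2 cluster on chromosome 7, Apoc2 at -0.67 and Apoc4 at -0.42 did not pass, whereas Apoc1, a modulator of lipoprotein uptake, rose by 1.07 (limma adjusted p = 0.029). Apoe lay next to it, at 0.68. Apoc1 had levels of 4.74, 4.28 and 4.43 in CKO samples, against 0.76, 3.24 and 3.58 in controls, with no overlap. Further out, Relb, a subunit of NF-kappaB, rose by 1.54 (limma adjusted p = 0.013), Zfp296 by 1.42 (adjusted p = 0.036) and Cblc by 0.86 (adjusted p = 0.049), while Tomm40, the gene beside Apoe, differed by 0.42 and did not pass. Near the other members, Adamts3 (0.62), Ldah (0.70) and Ffar4 (0.95) rose and Pf4 (-1.49), Adamts4 (-1.17), Klhl29 (-1.22), Cdh2 (-1.16) and Dsc2 (-0.95) fell. Of these, Ldah (0.61), Pf4 (-0.83) and Dsc2 (-0.52) did not pass with all 6 arrays.

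**Figure D5:**
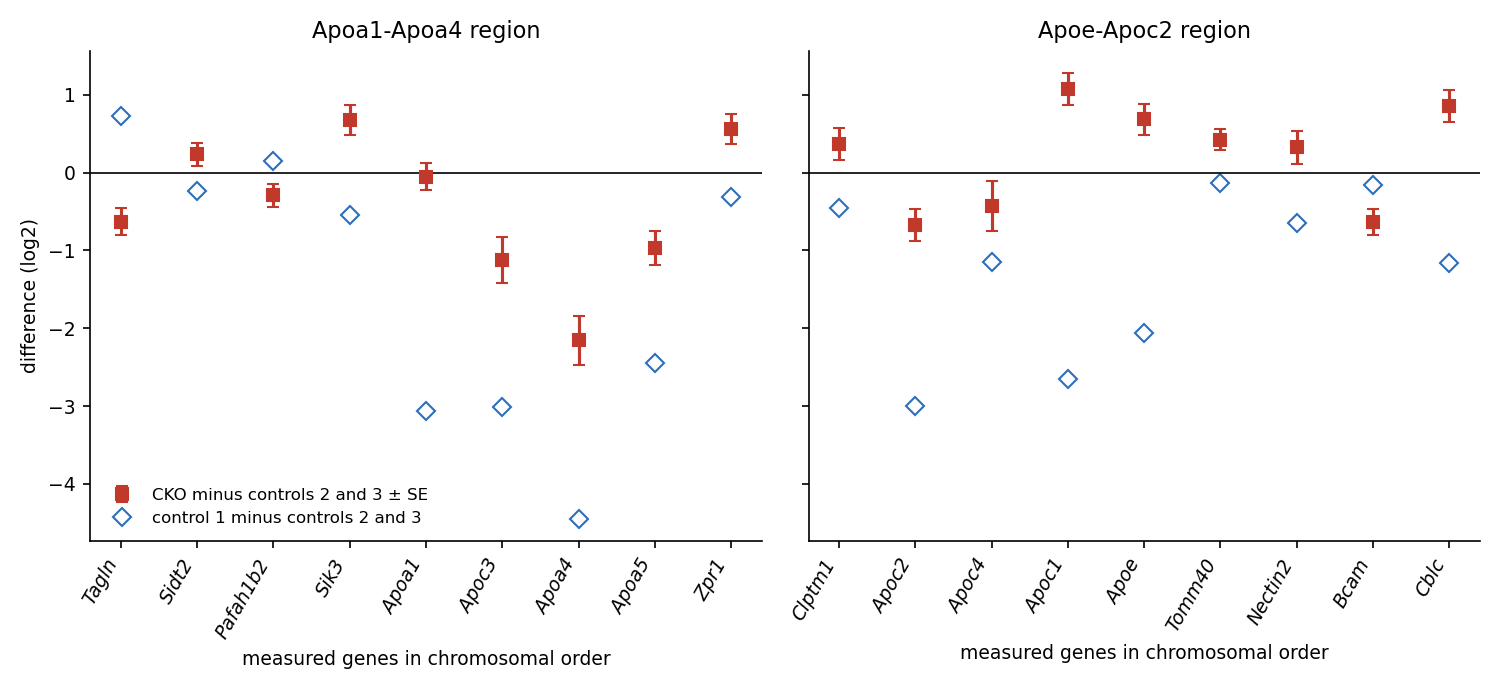
CKO minus controls 2 and 3 (red squares, log2, bars are SE) and control 1 minus controls 2 and 3 (open blue diamonds, log2) for the measured genes of the Apoa1-Apoa4 region and the Apoe-Apoc2 region, in chromosomal order. Apolipoprotein genes of both clusters are low on control 1, and between the genotypes those near Apoa4 lie below 0 while Apoc1 and Apoe lie above it.

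Promoter sequences were read for 9 of the 10 genes, as the 250 bases before each RefSeq start (GRCm38.p6), with 13 entries where a gene has several starts. Letters of liver and endoderm regulators were searched on both strands: those bound by HNF1, HNF4, FOXA and GATA proteins and by the TATA-binding protein, spelled out after the sequences. The promoters of the 3 genes that fell and of Apoa1, which lies beside Apoa4 and did not, are shown with the matched letters in capitals: Afp chr5:90490464-90490713, Apoa2 chr1:171224804-171225053, Apoa4 chr9:46240594-46240843 and Apoa1 chr9:46228380-46228629, all on the plus strand. Apoa2 has another entry, chr1:171221314-171221563, which held none of the letters and is not shown.

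Afp: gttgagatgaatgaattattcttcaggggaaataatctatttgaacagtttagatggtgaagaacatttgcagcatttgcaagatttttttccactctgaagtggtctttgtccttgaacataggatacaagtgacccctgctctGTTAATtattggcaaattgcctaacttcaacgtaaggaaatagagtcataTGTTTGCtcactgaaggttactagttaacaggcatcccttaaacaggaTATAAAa

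Apoa2: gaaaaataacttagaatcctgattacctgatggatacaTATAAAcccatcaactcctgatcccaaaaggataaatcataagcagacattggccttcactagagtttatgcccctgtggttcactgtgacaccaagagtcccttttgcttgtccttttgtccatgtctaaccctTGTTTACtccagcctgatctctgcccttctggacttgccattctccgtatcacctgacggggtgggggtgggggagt

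Apoa4: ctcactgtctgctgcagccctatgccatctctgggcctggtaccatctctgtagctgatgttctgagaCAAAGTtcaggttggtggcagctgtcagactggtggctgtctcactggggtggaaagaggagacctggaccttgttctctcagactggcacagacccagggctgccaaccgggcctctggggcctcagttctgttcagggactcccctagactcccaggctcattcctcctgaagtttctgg

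Apoa1: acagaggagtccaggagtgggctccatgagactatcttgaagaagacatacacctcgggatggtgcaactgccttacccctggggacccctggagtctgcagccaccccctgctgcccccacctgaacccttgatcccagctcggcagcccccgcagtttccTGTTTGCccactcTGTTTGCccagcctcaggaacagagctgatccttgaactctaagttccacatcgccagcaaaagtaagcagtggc

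The HNF1 letters GTTAAT were found at Afp, Apoc2 and Apoe, and in 6.43% of all 32851 promoters of the same length. The FOXA letters TGTTTGC were found at Afp, Apoa1 and Apob (4.30% of all promoters). The other FOXA letters, TGTTTAC, were found at Apoa2 and Rbp4 (3.17%). The HNF4 letters CAAAGT were found at Apoa4 and Apoc2 (12.6%). Of the GATA letters, TGATAA was found at Apoc2 alone (7.94%), sharing 1 base with its HNF4 letters, and the form AGATAA at none (9.99%). The TATA box letters TATAAA were found at Afp, Apoa2, Apob, Apoe and Rbp4 (12.4%). A gene was named if any of its entries held the letters, while the shares are over single promoters. Genes that fell and genes that did not both held FOXA letters, and matched letters are not known binding sites.

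Other genes of the pathway were read from lists. Beside the counts of these lists, 7.33% of all genes were called lower and 7.47% higher without control 1. With all 6 arrays the shares were 5.31% and 5.25%. Of 7 measured other apolipoproteins, Apoc1 and Apon rose and Apoa5 fell without control 1; with all 6 arrays Apon alone rose. Apon, a further apolipoprotein gene, had a difference of 0.95 (limma adjusted p = 0.031). Of 13 measured genes of lipoprotein assembly and remodelling, 1 fell and none rose without control 1. It was Fabp1, a fatty acid binding protein of liver and gut, at -1.89 (limma adjusted p = 0.024). Mttp, which loads lipid onto the Apob protein, had levels of 1.93, 1.5 and 1.97 in CKO samples, against -1.39, 1.05 and 1.41 in controls, and differed by 0.57 (adjusted p = 0.13).

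Among the uptake receptors, none rose in either fit. Vldlr, a receptor that binds Apoe, fell by 1.38 without control 1 (limma adjusted p = 0.025) and also passed with all 6 arrays. It was not low on control 1, where it lay 0.29 above controls 2 and 3.

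Of 18 measured other carrier and plasma proteins, 5 fell without control 1 and none rose; with all 6 arrays none passed. Fga, Fgg and Trf are also visceral endoderm markers and were counted among those above, so the counts of these lists are not separate. Fgg and Fga, chains of fibrinogen, fell by 2.65 and 2.35 (limma adjusted p = 0.0017 and 0.0039). Ambp, the precursor of a plasma protease inhibitor, fell by 1.82 (adjusted p = 0.0066), Trf, the iron carrier transferrin, by 1.43 (adjusted p = 0.0063), and Serpina1b, an antitrypsin gene, by 1.32. Fgb, the remaining fibrinogen chain, differed by 0.50 and did not pass (limma adjusted p = 0.079). Alb, the gene of serum albumin, was not measured above background.

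Regulators of endoderm and lipid genes moved in both directions without control 1. Cebpa and Onecut1, regulators of liver genes, rose by 1.51 and 1.54 (limma adjusted p = 0.024 and 0.015). Nr2f2, an orphan nuclear receptor gene, fell by 1.10 (limma adjusted p = 0.047). Sox17 (0.99) and Nr1h2 (0.85) also rose, and Ppara (-1.05) fell. The medians of these 5 lists without control 1 lay between -0.54 and 0.32, beside 0.067 over all genes tested and -0.28 over the 10 members.

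Markers of other cell types also differed between the genotypes. Primitive erythroid markers, like the members, come from the yolk sac. They summed to 79.1, 65.3 and 75.3 on CKO 1, 2 and 3, against 71.3, 262 and 290 on controls 1, 2 and 3. Control 1 thus lay within the CKO range. Of these 11 markers, 9 fell without control 1 and 2 with all 6 arrays, beside 7.33% and 5.31% of all genes. Trophoblast markers summed to 4.04, 3.65 and 1.97 in CKO samples, against 0.281, 0.275 and 0.649 in controls, and heart muscle markers to 13.8, 11.9 and 17.5, against 123, 85.7 and 90.6. The part of these shifts in the members' differences was not tested.

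The genes whose pattern over the 6 arrays was most like the mean of the 10 members were Mfsd4b1, Pcbd1, Creb3l3, Slco1a6, Klb, Pdzk1, Optn and Sec14l2, with Pearson correlations of 0.996 to 0.998. Those values rest on the low control 1, which all of them share, and the arrays share their scaling and groups. Among these 8, Slco1a6 fell in CKO samples without control 1, by 0.86 (limma adjusted p = 0.046); the other differences lay between -0.81 and -0.26 and did not pass.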

How the data were processed

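Whole E8.5 mouse embryos (3 CKO, 3 control) were measured on 1-colour Agilent arrays, from 250 ng of RNA labelled with Cy3 per the labels' protocols. The scanner files deposited by the authors hold the processed signal, an intensity with background subtracted, made with Agilent Feature Extraction 9.5 per the submitters' processing notes. Further deposited columns hold the mean and background intensity and, per the file headers, 0 or 1 flags (unit: other) for background, saturation and outliers. At 100% of spots the deposited series table equalled the processed intensity, and the scanner files were read. No column belonged to samples outside the series. Depth on arrays is signal over background: 68.5% to 73.5% of 43379 spots were well above background, and the number of arrays limits the precision. The 75th percentile was 958 to 1627 units. Spots marked as outliers, 53 to 83 per array, were dropped.

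Here, replicate spots were averaged on the log2 scale, the 75th percentile was subtracted, and a probe was kept if every array of either genotype had it well above background (27841 tested). Of 41174 probes, 22944 were named through accession, 6664 through symbol and 3108 through synonym in a RefSeq table of GRCm38.p6; the others kept the array's name. A gene was read through its brightest probe. R 4.3.3 and limma 3.58.1 gave moderated two-sided tests (lmFit, eBayes), adjusted by Benjamini-Hochberg over the probes tested. Files were read with Python 3.11.15. Members, lists, motifs and tests were chosen with earlier results of these data known. Named genes were the members, per list the 4 passing genes that differed most, the 8 most alike, neighbours that passed, and Alb and Mttp; genes that complete a count (S100g, Slc2a2, Serpina1b, Sox17, Nr1h2, Ppara), Fgb and unpassed cluster neighbours were named after their values were seen. Some list results are not reported here. Replicate numbers did not pair the samples: deviations of same-numbered samples correlated at -0.13, 0.081 and 0.091.

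As a check on simulated data, 200 of 27841 probes were changed. With all 6 arrays 26.0%, 63.2% and 89.8% of log2 changes of 1, 2 and 4 were recovered, with 6 false calls of 121. Without control 1 the shares were 7.81%, 60.0% and 80.3%, with 7 of 108. With the covariate they were 0%, 50.9% and 84.0%, with 5 of 102. In the covariate fit of the arrays themselves, Apoe and Apom passed at 1.04 and 0.90, near the size with 0% recovered. All these shares are over the changed probes as a whole. Recovery at the members' own spread, with standard errors of 0.55 to 1.19 with all 6 arrays, was not tested. How leaving out control 1 for its levels bears on false calls was not tested either.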

Additional observations from a re-analysis of the deposited data

How the results depend on the processing

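With all 6 arrays, no member was called under quantile, median or normexp scaling (offset 50), either dim-probe filter, the series table, a trend with robust eBayes, scan day, spike-in split or slide as a block, the mean of a gene's probes or the replicate block (0 higher and 0 lower). Array weights, whose fit gave a convergence warning, called 1 higher and 3 lower. The covariate called 2 higher and 2 lower. Leaving out an array in turn gave 0 higher and 0 to 3 lower, where 3 is the value without control 1. Reversed directions were Afp without control 2 (0.17) or control 3 (0.14), Apoa4 without control 3 (0.28), and without control 1 Apoa1 (-0.052), Apob (-0.13), Apoc2 (-0.67), Ttr (-0.34) and Rbp4 (-0.22). Array weights reversed Apob (-0.030), Apoc2 (-0.37) and Rbp4 (-0.055), and the covariate reversed Apoc2 (-0.16). Read through probe 2 or probe 1, chosen after seeing the data, Apob was -0.26 or -0.080. Beyond the arrays left out and the probes used, the cause was not tested. Over the arrays left out in turn, Afp ranged from -0.86 to 0.17, Apoa1 from -0.052 to 1.53, Apoa4 from -2.16 to 0.28, Apob from -0.13 to 1.31, Apoc2 from -0.67 to 0.97, Ttr from -0.34 to 1.05 and Rbp4 from -0.22 to 0.82.

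Without control 1, 1 member (Apoe) rose with normexp, the trend with robust eBayes, array weights, or CKO 2 left out. With scan day as a block the lower count was 1 in place of 3, in a fit with fewer residual degrees of freedom. Leaving out a further array gave 0 to 1 higher and 1 to 3 lower; without control 3 it was 1 (Apoa2). The replicate block gave 2 lower, with Afp at -0.81 (adjusted p = 0.084). Apoa1 was 0.010 with array weights, 0.035 without CKO 2 and 0.047 without control 3, in a range of -0.15 to 0.047 over the arrays left out. Apoc2 passed with the trend (adjusted p = 0.034) and array weights (adjusted p = 0.027), and Apob passed as the mean of its probes (-0.67). Slide as a random block was not run here, since its correlation could not be estimated. Control 1's median shift of -2.80 ranged from -2.98 to -2.80 over its 6 alternatives. The median of all kept probes was 0.095 with the 75th percentile and -0.065 with median scaling.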
